A study of Trichoderma reesei with 17 samples.

Results

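The comparison described here is that of the parental strain QM9414 of the filamentous fungus Trichoderma reesei in cellulose against the same strain in glucose. Its members were the QM9414 libraries with these carbon sources in their labels, 3 in cellulose (replicates 1, 2 and 3) and 2 in glucose (replicates 1 and 3), which is 5 of the 17 RNA-seq libraries of the series. Glucose replicate 2 is not analysed here. All 9129 genes of the count table were read in each. The series also holds sophorose cultures and the deletion mutant Δxyr1, which entered the fit but not the comparison.

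QM9414 is given as wild type in the labels and carries the intact xyr1 gene, and it is an industrial mutant line with raised cellulase output that descends from the isolate QM6a. In both groups a spore suspension was inoculated into Mandels-Andreotti medium and shaken at 200 rpm and 28 °C. The cellulose cultures held 1% (w/v) cellulose (Avicel), and RNA of 24, 48 and 72 h was pooled. The glucose cultures held 2% (w/v) glucose, and RNA of 24 and 48 h was pooled. Carbon source, carbon amount and culture time therefore changed together and cannot be told apart in any result below. The replicates are described as biological replicates.

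Cellulose is an insoluble polymer that the fungus opens with secreted enzymes, taking up the soluble sugars by permeases. Glucose enters glycolysis directly and, through the repressor CRE1, keeps many genes for other carbon sources at a low level. A change of carbon source in a filamentous fungus reaches far beyond the secreted enzymes, to uptake, central carbon metabolism, respiration, protein synthesis, cell surface proteins and development, and these groups are taken in turn.

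The number of reads counted on genes was between 12168145 and 19628491 per library in cellulose and 9852765 and 19056754 in glucose. Levels are given as CPM, the edgeR unit of counts relative to the library total after TMM scaling, always in the order of replicates 1, 2 and 3 in cellulose and 1 and 3 in glucose. A gene was called higher or lower in cellulose when its adjusted p in edgeR's quasi-likelihood test was at most 0.05 and its log2 fold change 1 or more in either direction. With 3 libraries against 2, an exact permutation test of a single value cannot give a p below 0.1.

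Cellulose replicate 1 stood apart from the other cellulose libraries. In 25 genes with at least 50 CPM in both glucose libraries and at least 50-fold less in cellulose replicates 2 and 3, replicate 1 lay above replicates 2 and 3 in 25 of 25. The median fold of replicate 1 over these libraries was 28.9, and its median excess was 10.7% of the glucose level (range 5.23% to 37.1%). In the chloroperoxidase gene 123084 the values were 978, 9.86 and 15.2 CPM in cellulose, against 7994 and 10900 CPM in glucose (log2 fold change −4.82, or −9.56 without cellulose replicate 1). In the opposite direction, 96 genes were chosen for at least 50 CPM in cellulose and at least 50-fold less in both glucose libraries. Their medians in the glucose libraries were 0.484% and 0.442% of the cellulose level. That choice itself held the glucose values low, so a like excess in the glucose libraries could not have appeared and was not tested. The counts of each list below are therefore also given without cellulose replicate 1, and so is the log2 fold change of a named gene where leaving out that library moved the fold by over 1.5 times or changed the call.

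**Figure D1:**
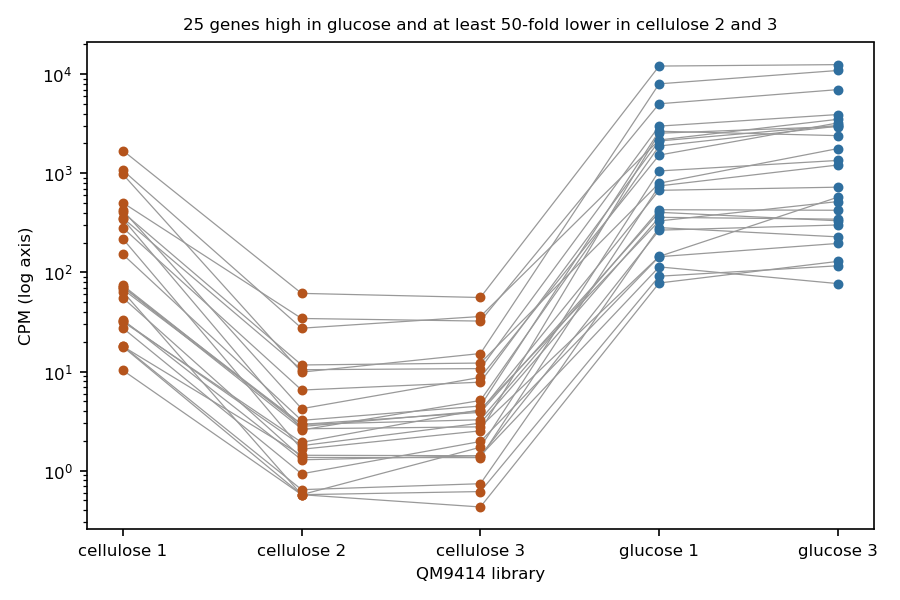
CPM on a log axis of 25 genes in the 3 cellulose and 2 glucose libraries of QM9414, with 1 line per gene. The genes were chosen for at least 50 CPM in both glucose libraries and at least 50-fold less in cellulose replicates 2 and 3, and all 25 are higher in cellulose replicate 1 than in those.

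Of the 8506 genes tested, 1634 (19.2%) were called higher in cellulose and 1160 (13.6%) lower, so that 32.8% changed. The counts of each list below are to be read beside these shares, and the difference of a list from them was not tested. The libraries of the groups did not overlap in 1627 of the higher genes (19.1% of all tested) and 1136 of the lower genes (13.4%), and over all genes, called or not, cellulose lay above glucose in 38.3% and below it in 38.7%. Without cellulose replicate 1 the counts were 1623 (19.1%) and 1284 (15.1%), with 1575 and 1140 genes shared with the full set and 0 genes called in opposite directions. Over all genes tested, the median log2 fold change was −0.015, and −0.017 without that library. With the adjusted p alone, 2358 (27.7%) were higher and 2403 (28.3%) lower, against 2214 (26.0%) and 2309 (27.1%) without cellulose replicate 1. With the fold threshold raised to 2 on the log2 scale, 901 (10.6%) were higher and 315 (3.70%) lower, against 911 (10.7%) and 421 (4.95%) without it.

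The increases were larger than the decreases. Among called genes, 244 had a log2 fold change above 5 and 8 had one below −5. Here cellulose replicate 1 carried weight, since without it these counts were 246 and 75. No read was counted in either glucose library for 39 of the genes called higher, and no read in the cellulose libraries for 1 of the genes called lower.

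**Figure D2:**
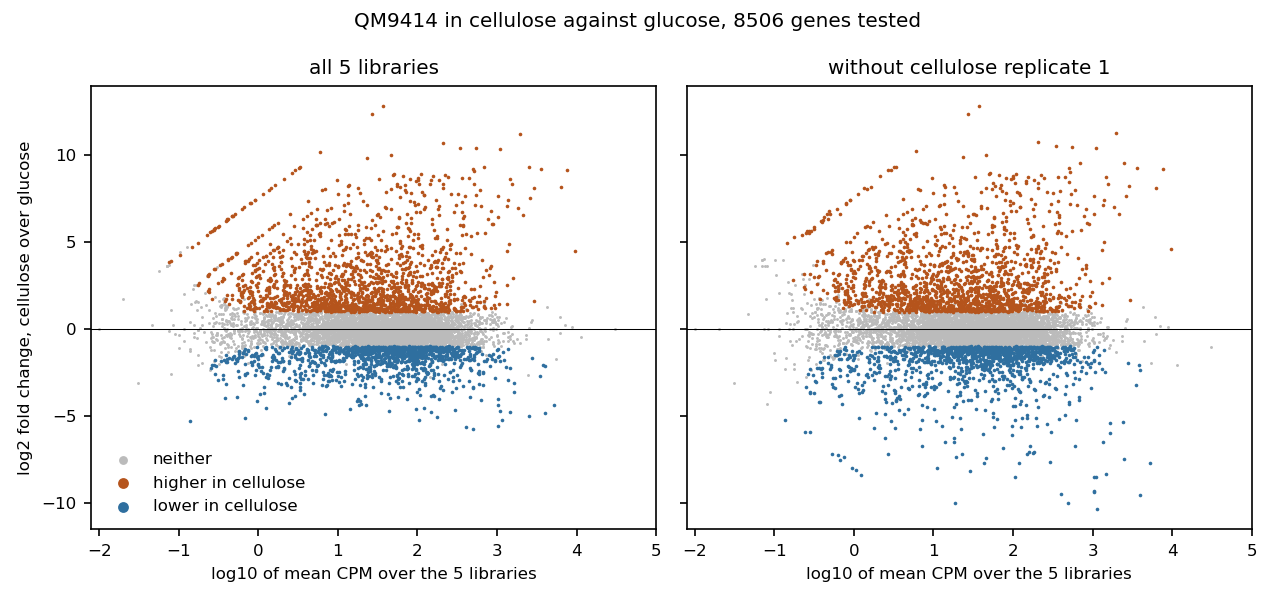
Log2 fold change of cellulose over glucose against the log10 of mean CPM for the 8506 genes tested, with all 5 libraries on the left and without cellulose replicate 1 on the right. Orange points were called higher and blue points lower in cellulose, and below −5 there are 8 called genes on the left and 75 on the right.

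CAZyme families that hold cellulases and hemicellulases had the highest median of the lists and are given only as the frame for the rest. Of 34 genes in these families, 25 were higher and 4 lower (25 and 4 without cellulose replicate 1), with a median log2 fold change of 6.13 (5.94 with genes without glucose reads at their bound) and a sum of 29043 ± 1940 CPM in cellulose against 1299 ± 34.6 CPM in glucose (SD, n = 3 and 2). Without cellulose replicate 1 the sum was 23.2-fold higher. Families do not map fully to substrates: 2 of the 4 lower genes were GH30 glucan endo-1,6-β-glucanases (IDs 3094 and 69736), and the endoglucanase gene cel5a (ID 120312, log2 fold change 10.35) stood among the other CAZymes. The cellobiohydrolase gene cel7a (ID 123989) had 11787, 13431 and 13077 CPM in cellulose, against 28.7 and 16.5 CPM in glucose.

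Sugar transporters and other permeases of the major facilitator superfamily (MFS), which carry small solutes across the plasma membrane, changed in large number. Of 185 tested, 93 were higher and 24 lower in cellulose, with a median log2 fold change of 1.12, and without cellulose replicate 1 the counts were 96 and 25. The hexose transporter gene hxt1 (ID 22912) had 723, 842 and 679 CPM in cellulose, against 1.99 and 1.63 CPM in glucose. Its log2 fold change was 8.70 (SE 0.596, adjusted p = 1.1e-08), and the libraries did not overlap.

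The MFS permease gene 3405 had the highest CPM of the list in cellulose, with 3890, 4748 and 4302 CPM in cellulose, against 32.6 and 13.3 CPM in glucose (log2 fold change 7.56, SE 0.966, adjusted p = 8.5e-06). For the MFS permease gene 69957, 3822 reads were counted in cellulose and 2 in glucose, which puts the ratio at 1140 (95% interval for counting error 316 to 9450). The MFS permease gene 76897 had 74.6, 89.7 and 89.5 CPM in cellulose, against 0.181 and 0.157 CPM in glucose. Genes 69957 and 76897 were thus close to unread in glucose, and all 3 genes were also called without cellulose replicate 1.

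Other members led in glucose. The MFS multidrug transporter gene 43701, of a class that exports drugs and toxins, had 1698, 61.5 and 55.8 CPM in cellulose, against 12078 and 12492 CPM in glucose. Its log2 fold change was −4.34 (adjusted p = 0.0024), and −7.71 without cellulose replicate 1, and in a fit of the 5 libraries alone the call was narrowly lost. The sugar transporter gene 106556, second in CPM in glucose and picked after its values were seen, had 1131, 43.9 and 65.9 CPM in cellulose, against 2450 and 4607 CPM in glucose (log2 fold change −3.09, adjusted p = 0.014, or −6.01 without cellulose replicate 1). Sugar transporters thus lay on both sides. Another multidrug transporter gene, 6103, had 0.944, 0.214 and 0.369 CPM in cellulose, against 16.4 and 16.3 CPM in glucose (log2 fold change −4.90, adjusted p = 5.5e-08, or −5.75 without that library). Summed over the list, MFS transporters had 19413 ± 1310 CPM in cellulose and 23118 ± 3660 CPM in glucose (SD, n = 3 and 2), a difference in the opposite direction to the median that overlapped between libraries (exact two-sided permutation test, p = 0.2). Gene 43701 alone made up more than 12000 CPM of that sum in each glucose library.

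Carriers of amino acids, peptides and ammonium changed in both directions. Of 66 tested, 28 were higher and 13 lower in cellulose, with a median log2 fold change of 0.61, and the counts were the same without cellulose replicate 1. For the amino acid transporter gene LysP 66819, 1925 reads were counted in cellulose and 1 in glucose, which puts the ratio at 1150 (interval 207 to 45500). The oligopeptide transporter gene 120017 had 1269, 1633 and 2204 CPM in cellulose, against 12.7 and 26.7 CPM in glucose (log2 fold change 6.42, adjusted p = 1.6e-07). The amino acid permease gene Dip5 (ID 23415), picked after its values were seen, had a log2 fold change of 7.11.

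On the glucose side stood the ammonium carrier genes 82204 and MEA1. The high-affinity ammonium transporter gene 82204 had 168, 9.72 and 12.2 CPM in cellulose, against 335 and 996 CPM in glucose (adjusted p = 0.0058), a log2 fold change of −3.39, and of −5.92 without cellulose replicate 1. The ammonium permease gene MEA1 (ID 43671) had a log2 fold change of −2.69 (adjusted p = 1.0e-05). Both were picked after their values were seen. The amino acid transporter gene 110316 was the lowest of the list, with 18.1, 0.643 and 0.738 CPM in cellulose, against 283 and 228 CPM in glucose. Its log2 fold change was −5.25, or −8.51 without cellulose replicate 1.

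Among 68 genes for metal, ion and phosphate transport, 22 were higher and 5 lower (21 and 8 without cellulose replicate 1), with a median of 0.19. Ferric reductases, which reduce iron for uptake, were on both sides. The ferric reductase gene 110666 had 119, 137 and 147 CPM in cellulose, against 0.451 and 0.262 CPM in glucose (log2 fold change 8.61), while the ferric reductase gene 81096 had 168, 70.5 and 77.2 CPM in cellulose, against 539 and 555 CPM in glucose (log2 fold change −2.38, adjusted p = 2.1e-05). The cation transporting ATPase gene 81430 had a log2 fold change of 5.51. The plasma membrane H+ ATPase gene 76238, whose product builds the proton gradient that drives nutrient uptake, had 1727, 930 and 577 CPM in cellulose, against 6339 and 7862 CPM in glucose (log2 fold change −2.72, SE 0.369, adjusted p = 1.6e-05). It took 0.116% of all counts in cellulose and 0.750% in glucose.

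ABC transporters, which use ATP to move drugs, lipids and peptides, were called in both directions. Of 48 tested, 12 were higher and 10 lower (13 and 10 without cellulose replicate 1), with a median of 0.00. Their sum was 6818 ± 237 CPM in cellulose and 9335 ± 1210 CPM in glucose (SD, n = 3 and 2), which is 0.73-fold, without overlap (exact two-sided permutation test, p = 0.1), so that the sum was lower while the median was not. The MDR-type gene 73924 had 323, 352 and 361 CPM in cellulose, against 25.1 and 17.2 CPM in glucose. The PDR-type gene 77703 had 197, 58.3 and 63.5 CPM in cellulose, against 1117 and 1094 CPM in glucose (log2 fold change −3.38, adjusted p = 3.8e-06, or −4.18 without cellulose replicate 1).

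**Figure D3:**
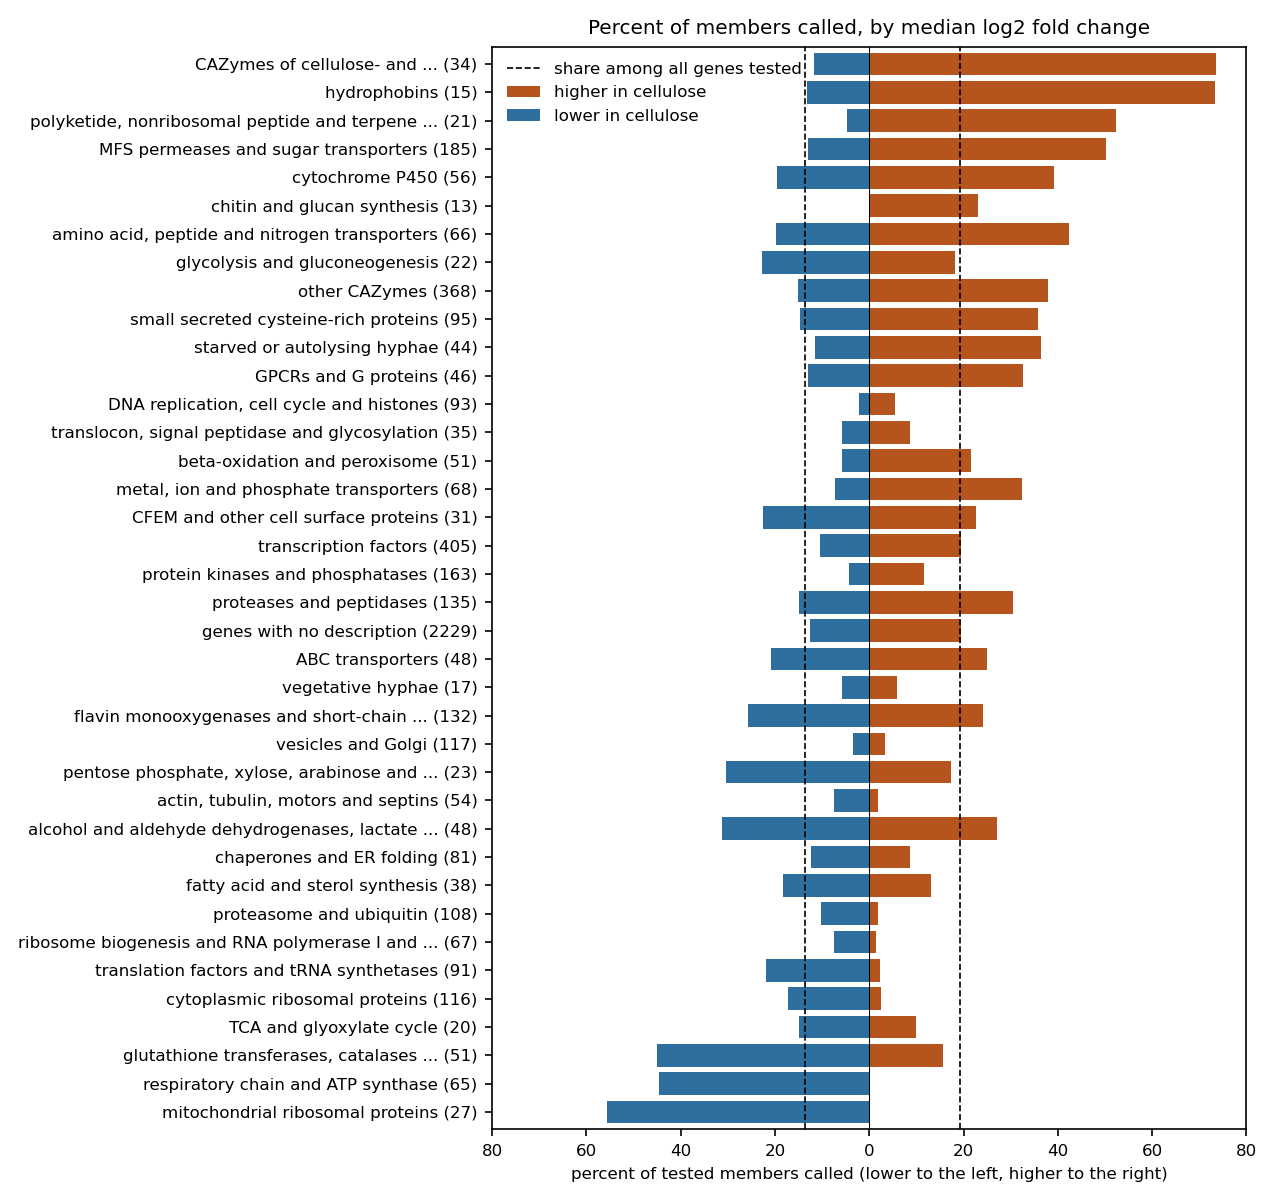
Percent of the tested members of each gene list called higher (right, orange) and lower (left, blue) in cellulose, ordered by the list's median log2 fold change, with the number tested in parentheses. Dashed lines mark the shares among all genes tested, 19.2% higher and 13.6% lower; the respiratory chain and the mitochondrial ribosome have no member called higher.

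In central carbon metabolism, single genes of gluconeogenesis, which makes sugar phosphates from smaller compounds, and of the glyoxylate cycle were higher in cellulose. The phosphoenolpyruvate carboxykinase gene AcuF (ID 124115) had 729, 861 and 691 CPM in cellulose, against 39.9 and 37.8 CPM in glucose (log2 fold change 4.29, SE 0.393, adjusted p = 2.4e-07). The fructose-bisphosphatase gene 65508 had 102, 96.3 and 116 CPM in cellulose, against 32.3 and 31.3 CPM in glucose (log2 fold change 1.72). The genes acu3 (ID 21758) and acu9 (ID 79271), whose names in Neurospora crassa belong to isocitrate lyase and malate synthase, had log2 fold changes of 3.21 (adjusted p = 8.9e-08) and 2.63 (adjusted p = 3.9e-08).

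Several glycolytic genes were lower. The glyceraldehyde-3-phosphate dehydrogenase gene gpd1 (ID 119735) had 1944, 1107 and 1329 CPM in cellulose, against 4311 and 5128 CPM in glucose (log2 fold change −1.69, SE 0.297, adjusted p = 0.00018). The enolase gene eno1 (ID 120568) had 902, 596 and 716 CPM in cellulose, against 1864 and 1884 CPM in glucose (log2 fold change −1.34, adjusted p = 0.0013). Of the 22 genes listed for glycolysis and gluconeogenesis, 4 were higher and 5 lower (5 and 5 without cellulose replicate 1), the median was 0.42 and the sum was 0.667-fold that in glucose, so that the median and the sum lay on opposite sides. The hexokinase gene hxk1 (log2 fold change −0.67), the pyruvate kinase gene 78439 (0.77) and the pyruvate carboxylase gene pyc1 (0.97) were not called, and pyc1 passed without cellulose replicate 1 (1.01). Another hexokinase gene, 79677, was higher, with 29.8, 33.5 and 29.6 CPM in cellulose, against 13.7 and 14.1 CPM in glucose (log2 fold change 1.16, adjusted p = 8.2e-06).

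Of 20 genes listed for the tricarboxylic acid and glyoxylate cycles, 16 had values below 0. Called lower were 3 of them, and 5 without cellulose replicate 1. The 2 genes called higher in either case were acu3 and acu9, given above. With all libraries this was 10.0% higher and 15.0% lower, against 19.2% and 13.6% of all genes tested. The citrate synthase gene cit1 (ID 122296) had 384, 306 and 325 CPM in cellulose, against 843 and 891 CPM in glucose (log2 fold change −1.36, adjusted p = 2.9e-05). The malate dehydrogenase gene 123729 had a log2 fold change of −1.61 and the aconitate hydratase gene 22632 one of −1.60. The malate dehydrogenase gene 62153 had 310, 30.7 and 25.0 CPM in cellulose, against 212 and 605 CPM in glucose, and its call rested on which libraries entered: −1.74 (adjusted p = 0.13) with all and −3.87 (adjusted p = 0.0012) without cellulose replicate 1.

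In the pentose phosphate pathway, which supplies NADPH, and the pathways for pentoses from hemicellulose, genes changed in both directions. The NADPH-forming dehydrogenase genes zwf1 (ID 75769) and pgd1 (ID 72685) were lower, pgd1 with 783, 524 and 561 CPM in cellulose, against 1912 and 2326 CPM in glucose (log2 fold change −1.77, adjusted p = 3.4e-06). The transketolase-like gene 120635 (−1.44) and the transaldolase gene 123026 (−1.60) were lower as well, while the transketolase gene 2211, under 4 CPM in every library, was higher (3.20, adjusted p = 3.8e-06). The xylose reductase gene xyl1 (ID 107776) had 173, 179 and 180 CPM in cellulose, against 13.5 and 29.6 CPM in glucose (log2 fold change 3.03, adjusted p = 6.1e-07). The xylitol dehydrogenase gene xdh1 (1.21) and the arabinitol dehydrogenase gene lad1 (1.43) were higher, while the L-xylulose reductase gene lxr1 had a log2 fold change of −1.41 (adjusted p = 0.046), a call lost without any 1 of the libraries other than cellulose replicate 1. In all, 4 of the 23 genes of these pathways were higher and 7 lower, also without cellulose replicate 1, with a median of −0.22.

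For fermentation and alcohol metabolism, 13 of 48 genes were higher and 15 lower (14 and 16 without cellulose replicate 1), with a median of −0.24. The pyruvate decarboxylase gene 121534 took 0.308% of the counts in cellulose and 0.997% in glucose, with 3721, 2231 and 2605 CPM in cellulose, against 8388 and 10510 CPM in glucose. The libraries did not overlap, but the log2 fold change of −1.73 (SE 0.829) was not called (adjusted p = 0.089). The zinc-containing alcohol dehydrogenase gene 30759 had 422, 4.22 and 8.73 CPM in cellulose, against 1527 and 3225 CPM in glucose (adjusted p = 0.012), a log2 fold change of −4.03, and of −8.51 without cellulose replicate 1. Its call was lost in the fit of the 5 libraries alone (adjusted p = 0.10) and without glucose replicate 3 (adjusted p = 0.059).

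**Figure D4:**
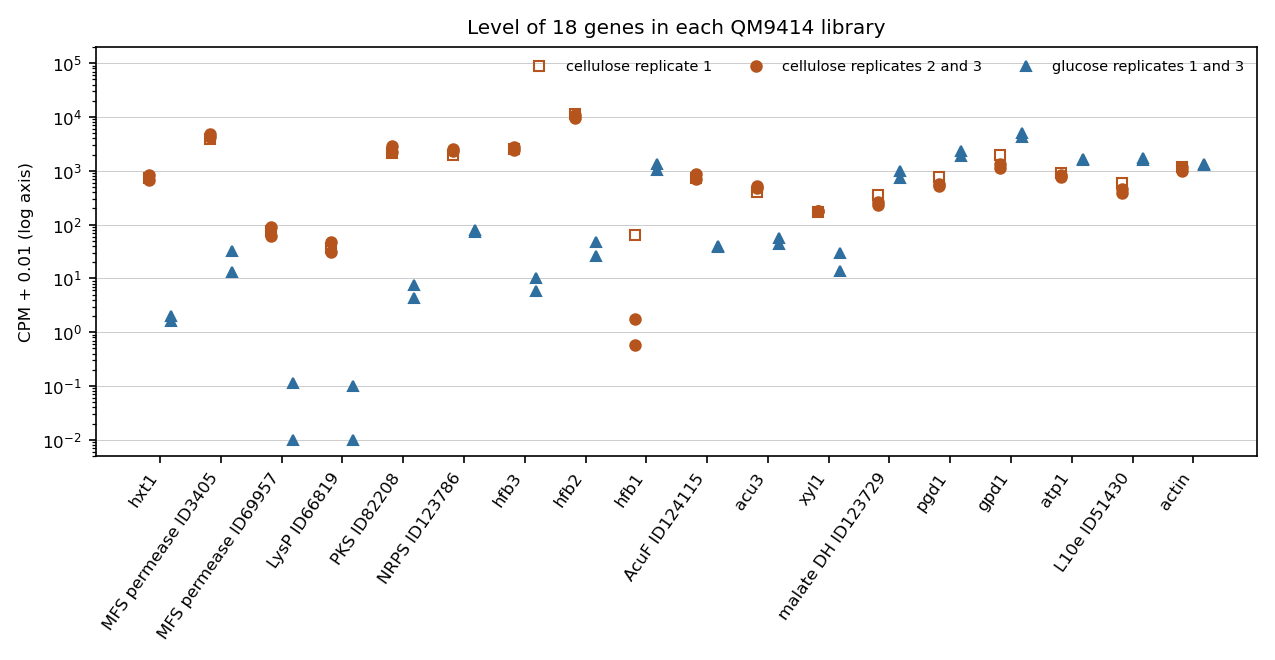
CPM + 0.01 on a log axis for 18 genes in each QM9414 library, with cellulose replicate 1 as open squares, cellulose replicates 2 and 3 as filled circles and glucose replicates as triangles. Cellulose libraries lie above glucose libraries for hxt1, acu3, xyl1 and hfb2 and below them for pgd1, gpd1 and atp1; only in hfb1 among these genes does cellulose replicate 1 lie far from the other cellulose libraries.

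Genes of the mitochondrial energy chain were called in the lower direction only. Of 65 genes for respiratory complexes and ATP synthase, 0 were higher and 29 lower by edgeR, with a median log2 fold change of −0.96, and 61 of 65 had values below 0. Their sum was 7142 ± 757 CPM in cellulose and 14710 ± 400 CPM in glucose (SD, n = 3 and 2), with p = 0.1 by the exact permutation test, two-sided. Without cellulose replicate 1, 33 were lower and the median was −1.01. DESeq2 called 0 of them higher and 29 lower, and at an unadjusted p under 0.05 in edgeR 0 were higher and 56 lower.

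The ATP synthase α subunit gene atp1 (ID 21673) had 894, 752 and 818 CPM in cellulose, against 1569 and 1631 CPM in glucose. Its log2 fold change of −0.96 (adjusted p = 0.00030) fell just short of the fold threshold and passed it without cellulose replicate 1 (−1.03). The ATP synthase subunit c gene 60847 was the lowest of the list, with 151, 59.9 and 61.9 CPM in cellulose, against 522 and 501 CPM in glucose (log2 fold change −2.49, adjusted p = 3.6e-05, or −3.07 without cellulose replicate 1). The alternative oxidase gene aox1 (ID 57940), whose product bypasses part of the chain, had 353, 205 and 203 CPM in cellulose, against 318 and 585 CPM in glucose, with overlapping libraries (log2 fold change −0.83, adjusted p = 0.16).

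Genes for mitochondrial protein synthesis moved in the same direction. Of 27 mitochondrial ribosomal protein genes, 0 were higher and 15 lower by edgeR, all 27 values were below 0, and the median was −1.09. Without cellulose replicate 1, 17 were lower. DESeq2 called 0 higher and 15 lower, and at an unadjusted p under 0.05 in edgeR 0 were higher and 25 lower. The gene for mitochondrial ribosomal protein L17 (ID 102593) had 34.3, 25.8 and 29.8 CPM in cellulose, against 101 and 121 CPM in glucose (log2 fold change −1.89, adjusted p = 2.3e-06). No list was made of mitochondrial folding factors. Single genes of this kind, picked after their values were seen, were lower. They had −1.62 for the co-chaperone gene GrpE 73783, −1.40 for the hsp60 gene 119731 and −1.37 for the ATP synthase assembly chaperone gene ATP12 (ID 121248).

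Genes listed as cytoplasmic ribosomal proteins had smaller changes in the same direction. They were separated from mitochondrial ones by keyword only, so mitochondrial members not described as such can be among them. Of 116, 3 were higher and 20 lower (3 and 24 without cellulose replicate 1), 110 values were below 0, and the median was −0.61. The median without cellulose replicate 1 was −0.68, and it stayed between −0.64 and −0.58 under other scalings of the libraries. The ribosomal protein gene L10e (ID 51430) had 600, 395 and 450 CPM in cellulose, against 1557 and 1742 CPM in glucose (log2 fold change −1.78, SE 0.220, adjusted p = 6.0e-06). Next lowest were L1 (ID 77188, −1.35), L17 (ID 33273, −1.33), L6 (ID 31976, −1.29) and L4/L1e (ID 121469, −1.29). The gene L1 had 86.2 and 91.9 CPM in glucose, where rpl16 (ID 124010) had 1301 and 1076 CPM. Whether these low-level genes are mitochondrial was not tested. An exception was the ribosomal protein gene L29 (ID 123207), with 184, 201 and 165 CPM in cellulose, against 7.04 and 7.44 CPM in glucose (log2 fold change 4.66, adjusted p = 6.3e-11).

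Translation factors and tRNA synthetases followed, with 2 of 91 higher, 20 lower, the same counts without cellulose replicate 1, and a median of −0.58. This list too left out mitochondrial members by keyword only, and the elongation factor Tu gene 78049 (log2 fold change −1.55) was among its lowest. The elongation factor gene tef1a (ID 46958), often used as a reference gene, had 4056, 3312 and 3628 CPM in cellulose, against 5597 and 5412 CPM in glucose (log2 fold change −0.59, adjusted p = 0.056). The tryptophanyl-tRNA synthetase gene 65741 stood out in the other direction, with 103, 118 and 107 CPM in cellulose, against 8.58 and 11.4 CPM in glucose (log2 fold change 3.44). Of 67 genes for ribosome biogenesis, 1 was higher and 5 lower (1 and 8 without cellulose replicate 1), with a median of −0.47. Of 108 genes of the proteasome and ubiquitin system, 2 were higher and 11 lower (2 and 19 without cellulose replicate 1), with a median of −0.44. With all libraries, 7.46% of the ribosome biogenesis genes and 10.2% of the proteasome and ubiquitin genes were lower. Both shares were under the 13.6% of all genes tested, although the medians were below 0.

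Genes of the cell cycle, the cytoskeleton and vesicle traffic had few called members. DNA replication, cell cycle and histone genes had 5 of 93 higher and 2 lower (median 0.27), the cytoskeleton 1 of 54 higher and 4 lower (median −0.23), and vesicles and Golgi 4 of 117 higher and 4 lower (median −0.19). Leaving out cellulose replicate 1 gave 5 and 2, 2 and 5, and 4 and 4. Of all genes, 19.2% were higher and 13.6% lower, and the difference from these lists was not tested. The actin gene 44504 had 1161, 986 and 1164 CPM in cellulose, against 1268 and 1348 CPM in glucose (log2 fold change −0.25, adjusted p = 0.28). Exceptions were found. The cyclin gene 52520 had 297, 293 and 384 CPM in cellulose, against 25.9 and 21.5 CPM in glucose (log2 fold change 3.78). In the vesicle list, the Rab geranyl transferase escort protein gene 44278 had 413, 594 and 963 CPM in cellulose, against 2.17 and 4.09 CPM in glucose (log2 fold change 7.68, adjusted p = 1.7e-08).

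For the secretory pathway, the translocon, signal peptidase and glycosylation list had 3 of 35 higher and 2 lower (median 0.22), and chaperones and ER folding 7 of 81 higher and 10 lower (median −0.25). These counts became 3 and 2, and 7 and 11, without cellulose replicate 1. With all libraries, 8.57% of the first list were higher and 5.71% lower, and 8.64% and 12.3% of the second. Of all genes tested, 19.2% were higher and 13.6% lower. The protein disulfide isomerase gene pdi1 (ID 122415) had 1353, 1435 and 1431 CPM in cellulose, against 224 and 200 CPM in glucose (log2 fold change 2.73, SE 0.203, adjusted p = 2.8e-08). The ER chaperone gene bip1 (ID 122920) had 1315, 1309 and 1677 CPM in cellulose, against 499 and 554 CPM in glucose (log2 fold change 1.45, adjusted p = 0.00022). Both were picked after their values were seen. The gene ire1 (ID 45242), which encodes the sensor of unfolded ER proteins, had a log2 fold change of 0.34 (adjusted p = 0.14). The cytosolic chaperone genes with most reads varied within the groups, the HSP104 gene 80142 with 7850, 5683 and 9142 CPM in cellulose, against 3226 and 9784 CPM in glucose.

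Genes of lipid metabolism were called in both directions. Of 51 genes for beta-oxidation and the peroxisome, 11 were higher and 3 lower (median 0.21), and of 38 genes for fatty acid and sterol synthesis 5 were higher and 7 lower (median −0.42). They were 12 and 3, and 6 and 9, without cellulose replicate 1. With all libraries these were 21.6% higher and 5.88% lower for the first list, and 13.2% and 18.4% for the second. Of all genes tested, 19.2% were higher and 13.6% lower. The acyl-CoA synthetase gene 54667, of an enzyme class that activates fatty acids, had 174, 185 and 192 CPM in cellulose, against 0.722 and 0.157 CPM in glucose (log2 fold change 8.90, SE 0.396, adjusted p = 1.4e-10). Of the synthesis list, the oleate δ-12 desaturase gene 74228 had 35.8, 40.9 and 28.2 CPM in cellulose, against 2.17 and 1.15 CPM in glucose (log2 fold change 4.46). The fatty acid elongase gene 21908, picked after its values were seen, had 226, 190 and 261 CPM in cellulose, against 894 and 682 CPM in glucose (log2 fold change −1.81). The fatty acid synthase gene FAS2 (ID 48788) was not called, at −0.68 (adjusted p = 0.087). The Woronin body gene hex1 (ID 123056), whose product plugs hyphal pores, had 7353, 6935 and 7488 CPM in cellulose, against 4741 and 4217 CPM in glucose (log2 fold change 0.70, adjusted p = 0.034).

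Redox and detoxification genes were among the groups lower in cellulose. Of 51 glutathione transferases, catalases, superoxide dismutases and thioredoxins, 8 were higher and 23 lower, with a median of −0.92, and without cellulose replicate 1 the counts were 9 and 26 and the median −1.11. The glutathione transferase gene 111082 had 1073, 27.4 and 35.9 CPM in cellulose, against 2169 and 3507 CPM in glucose. Its log2 fold change was −2.91 (adjusted p = 0.024) with all libraries and −6.49 without cellulose replicate 1, and the call was lost without cellulose replicate 3 (adjusted p = 0.052) or glucose replicate 3 (adjusted p = 0.097). The glutathione transferase gene 103487 was on the other side, with 97.3, 99.5 and 83.1 CPM in cellulose, against 4.79 and 5.09 CPM in glucose (log2 fold change 4.24, adjusted p = 9.8e-07).

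Synthase genes of secondary metabolism were mostly higher in cellulose. Of 21 polyketide synthase (PKS), nonribosomal peptide synthetase (NRPS) and terpene synthase genes, 11 were higher and 1 lower in cellulose, with a median of 1.23, and 9 and 1 without cellulose replicate 1. Their sum was 7069 ± 990 CPM in cellulose and 725 ± 96.2 CPM in glucose (SD, n = 3 and 2; exact two-sided permutation test, p = 0.1), which is 9.75-fold. The PKS gene 82208 had 2133, 2280 and 2898 CPM in cellulose, against 4.33 and 7.60 CPM in glucose (log2 fold change 8.66, SE 0.658, adjusted p = 3.3e-08).

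The NRPS genes 123786 and 23171 were the next by reads. Gene 123786 had 1978, 2310 and 2570 CPM in cellulose, against 73.3 and 80.2 CPM in glucose (log2 fold change 4.90), and gene 23171 had 1157, 1376 and 1613 CPM in cellulose, against 12.4 and 12.7 CPM in glucose (log2 fold change 6.78). The siderophore synthase gene 69946, for an iron carrier, had a log2 fold change of 2.45 (adjusted p = 5.3e-05). The NRPS gene 81014 was the 1 lower member, with 80.9, 54.8 and 84.6 CPM in cellulose, against 284 and 380 CPM in glucose (log2 fold change −2.17). The calls of the PKS gene 65172 and the terpene synthase gene 59597 were lost without cellulose replicate 1, at adjusted p = 0.054 and 0.070. Both had under 2 CPM in every library.

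Cytochrome P450 genes, whose products oxidize metabolites and foreign compounds, had 22 of 56 higher and 11 lower (22 and 12 without cellulose replicate 1), with a median of 0.71. The P450 gene 4999 had 224, 246 and 249 CPM in cellulose, against 1.17 and 0.419 CPM in glucose (log2 fold change 8.36). Flavin monooxygenases and short-chain dehydrogenases changed in both directions, with 32 of 132 higher and 34 lower (31 and 40 without cellulose replicate 1). The flavin-containing monooxygenase gene 76230 had 2579, 3697 and 6182 CPM in cellulose, against 4.24 and 8.49 CPM in glucose (log2 fold change 9.33, SE 1.39, adjusted p = 3.8e-05). The flavoprotein monooxygenase gene 73623 had 218, 1.64 and 2.52 CPM in cellulose, against 2538 and 2966 CPM in glucose (adjusted p = 0.0057), a log2 fold change of −5.21, and of −10.35 without cellulose replicate 1. In the fit of the 5 libraries alone it was not called (adjusted p = 0.064).

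Hydrophobins, small amphipathic proteins that coat aerial hyphae and spores, were mostly higher in cellulose. Of 15 tested, 11 were higher and 2 lower, also without cellulose replicate 1, with a median of 2.00, and the sum was 17391 ± 1360 CPM in cellulose and 2666 ± 311 CPM in glucose (SD, n = 3 and 2). The gene hfb2 (ID 119989) took 1.14% of all counts in cellulose and 0.00398% in glucose. It had 11141, 9403 and 10968 CPM in cellulose, against 47.5 and 26.2 CPM in glucose (log2 fold change 8.16, SE 0.868, adjusted p = 1.3e-06).

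The gene hfb3 (ID 123967) had 2582, 2397 and 2798 CPM in cellulose, against 10.2 and 5.77 CPM in glucose (log2 fold change 8.35). Per kilobase of transcript, hfb2 was at 14800 CPM and hfb3 at 3150 CPM in cellulose. The gene hfb1 (ID 73173) went the other way, with 64.0, 0.572 and 1.72 CPM in cellulose, against 1057 and 1348 CPM in glucose. Its log2 fold change was −5.75 (SE 1.23, adjusted p = 0.00093) with all libraries and −9.99 without cellulose replicate 1. The other lower member was the hydrophobin gene 59703, under 1 CPM in every library, with a log2 fold change of −1.81, or −3.61 without cellulose replicate 1, whose call was lost in 6 alternative fits (adjusted p between 0.056 and 0.13).

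Genes of conidiation, the making of asexual spores, were higher in cellulose beside the hydrophobins and the polyketide synthases. Of 9 marker genes tested, 7 were higher and 0 lower by edgeR, with a median of 2.50, and 7 and 0 were counted by DESeq2 and without cellulose replicate 1. At an unadjusted p under 0.05, 0 of them were lower. Their summed level was between 3995 and 5022 CPM in the cellulose libraries and between 373 and 379 CPM in the glucose libraries, and none of the 9 was without reads in any library. The conidiospore surface protein gene cmp1 (ID 72379) had 3153, 3346 and 4124 CPM in cellulose, against 37.0 and 37.7 CPM in glucose. Trehalases, which break down a spore sugar, made up 3 of the 7 higher genes. The listed GH37 trehalase gene 120676 was not called, with 225, 224 and 217 CPM in cellulose, against 257 and 261 CPM in glucose (log2 fold change −0.22, adjusted p = 0.14). The genes for AbaA (ID 108775) and WetA (ID 4430), which in Aspergillus regulate spore formation, had log2 fold changes of 2.50 and 3.80. In RNA of whole cultures, a change in the share of a cell type and a change in RNA per cell cannot be told apart. The part of conidiation in the changes of hydrophobins and secondary metabolism was not tested.

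Of 4 genes of sexual development, 2 were higher, among them a pheromone receptor gene (ID 64018) with 12.7, 13.4 and 11.4 CPM in cellulose, against 1.53 and 1.15 CPM in glucose. Of 44 genes that mark starved or autolysing hyphae (chitinases, hexosaminidases, subtilisins and autophagy genes), 16 were higher and 5 lower (16 and 6 without cellulose replicate 1), with a median of 0.30. The chitinase-like gene chi18-rel1 (ID 65162) had 171, 204 and 233 CPM in cellulose, against 1.81 and 1.57 CPM in glucose. Of the 11 autophagy genes, 1 was higher, ATG5 (ID 122476) at 1.95. Among 17 markers of vegetative hyphae 1 was higher and 1 lower. The counts for sexual development, autophagy and vegetative hyphae were the same without cellulose replicate 1.

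Proteases had 41 of 135 higher and 20 lower (40 and 22 without cellulose replicate 1), with a median of 0.09. The aminopeptidase Y gene 81087 had 101, 116 and 128 CPM in cellulose, against 0.542 and 0.367 CPM in glucose (log2 fold change 8.02, adjusted p = 1.4e-10). After the HSP104 gene 80142, which the list also holds, the proteinase gene Sub8 (ID 123244) had most reads in cellulose, with 3799, 3964 and 4315 CPM in cellulose, against 1195 and 1433 CPM in glucose (log2 fold change 1.62). The aspartyl protease gene 111818 was lowest, with 17.8, 0.572 and 0.615 CPM in cellulose, against 91.5 and 117 CPM in glucose (log2 fold change −3.99, and −7.43 without cellulose replicate 1).

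Small secreted cysteine-rich proteins, many without a known function, had 34 of 95 higher and 14 lower (34 and 21 without cellulose replicate 1), with a median of 0.32. The gene 111915 had 305, 246 and 375 CPM in cellulose, against 0.903 and 0.734 CPM in glucose (log2 fold change 8.57). The gene 74060 had 756, 449 and 534 CPM in cellulose, against 2607 and 2922 CPM in glucose (log2 fold change −2.25). Of 31 other cell surface proteins 7 were higher and 7 lower, also without cellulose replicate 1. For the expansin-like gene 122375, no read was counted in glucose and 504 in cellulose, which is at least 101-fold higher with a floor of 3 counts over the glucose group. The Thr-rich cell wall mannoprotein gene 123475 had 1808, 1325 and 1941 CPM in cellulose, against 6696 and 7228 CPM in glucose (log2 fold change −2.04).

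For the making of the cell wall, 3 of 13 genes for chitin and glucan synthesis were higher and 0 lower by edgeR (median 0.64), the same counts as by DESeq2 and without cellulose replicate 1. At an unadjusted p under 0.05, 8 were higher and 1 lower. The genes called higher were 23.1% of the list, near the 19.2% of all genes tested. The glucanosyltransferase gene 77942 had 122, 121 and 135 CPM in cellulose, against 12.6 and 15.0 CPM in glucose (log2 fold change 3.19). The family GT48 gene 78176, with most reads of this list, had a log2 fold change of 0.06 (adjusted p = 0.89).

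Of 405 transcription factor genes, 79 were higher and 42 lower (77 and 44 without cellulose replicate 1), with a median of 0.14. These were 19.5% higher and 10.4% lower, near the 19.2% and 13.6% of all genes tested. The Zn2Cys6 regulator gene 121415 had 171, 185 and 169 CPM in cellulose, against 0.361 and 0.629 CPM in glucose (log2 fold change 8.36, adjusted p = 6.6e-09). The C2H2 regulator gene 108357 had the most reads in cellulose, with 2057, 2126 and 2460 CPM in cellulose, against 17.7 and 15.4 CPM in glucose (log2 fold change 7.07, SE 0.268, adjusted p = 5.5e-11). The Zn2Cys6 regulator gene 112643 was the lowest, with 3.13, 0.143 and 0.553 CPM in cellulose, against 29.4 and 37.6 CPM in glucose (log2 fold change −4.60, or −6.51 without cellulose replicate 1).

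Of 9 listed regulators of cellulase genes, 2 were called, both higher, also without cellulose replicate 1. The list does not hold the Zn2Cys6 regulator gene ace3 (ID 77513), which has no such name in the deposited table and was picked after its value was seen. It was higher in cellulose too (log2 fold change 2.92, adjusted p = 4.5e-10). The activator gene xyr1 (ID 122208) had 534, 654 and 677 CPM in cellulose, against 9.21 and 10.0 CPM in glucose (log2 fold change 6.01, SE 0.541, adjusted p = 2.0e-07). The gene lae1 (ID 41617), for a methyltransferase-like regulator, had 80.7, 87.2 and 84.4 CPM in cellulose, against 16.3 and 15.5 CPM in glucose (log2 fold change 2.41). The repressor gene cre1 (ID 120117) had 609, 618 and 469 CPM in cellulose, against 292 and 295 CPM in glucose, and its log2 fold change of 0.94 (adjusted p = 0.0031) stayed under the fold threshold, except at 1.06 without cellulose replicate 3. The genes ace1 (0.08), hap2 (−0.09), hap3 (0.34), vel1 (0.67) and VIB-1 (−0.42) were not called.

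Of 46 receptors and G proteins 15 were higher and 6 lower (median 0.28), and of 163 kinases and phosphatases 19 were higher and 7 lower (median 0.10). The same lists had 15 and 8, and 17 and 9, without cellulose replicate 1. The receptor gene 81383, which also holds an RGS domain for switching off G proteins, had 592, 654 and 541 CPM in cellulose, against 6.68 and 4.77 CPM in glucose (log2 fold change 6.71, adjusted p = 8.3e-11). The kinase gene 64125 had 140, 145 and 218 CPM in cellulose, against 0.361 and 0.419 CPM in glucose (log2 fold change 8.69). Among light-response genes, picked after their values were seen, env1 (ID 81609) had a log2 fold change of 2.06 (adjusted p = 0.0016) and the photoreceptor gene blr1 (ID 121962) one of 0.18 (adjusted p = 0.55). The photolyase gene phr1 (ID 107680) had 104, 115 and 124 CPM in cellulose, against 6.23 and 6.19 CPM in glucose (adjusted p = 7.3e-08).

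Stretches of neighbouring genes changed in the same direction. The gene after a gene called higher was also higher in 510 of 1497 cases (34.1%, against 19.2% of all genes), and the gene after one called lower was also lower in 259 of 1059 (24.5%, against 13.6%). The difference was not tested. There were 22 runs of at least 5 neighbours called higher, with 123 genes, and 5 runs called lower, with 31 genes. Without cellulose replicate 1 there were 21 runs with 119 genes and 6 runs with 39 genes. The runs and their genes described next were picked after their values were seen.

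The longest run held 9 genes lower in cellulose, among them 73618, 73621 and 73631 without description, the flavoprotein monooxygenase 73623, the multidrug transporter 43701, and the Zn2Cys6 regulators 102497 and 102499. The gene 73618 had 504, 34.3 and 32.3 CPM in cellulose, against 5028 and 6989 CPM in glucose (log2 fold change −4.98, adjusted p = 0.00020, or −7.50 without cellulose replicate 1). The regulator gene 102497 had 182, 39.9 and 35.5 CPM in cellulose, against 1476 and 1387 CPM in glucose (log2 fold change −4.06, or −5.25 without that library). Directly beside this run lay the acetyl xylan esterase gene axe1 (ID 73632) and the gene cip1 (ID 73638), a secreted protein with a cellulose-binding module, which went the other way. The gene axe1 had 75.7, 80.9 and 90.1 CPM in cellulose, against 0.271 and 0.105 CPM in glucose (log2 fold change 8.87). The gene cip1 had 771, 898 and 857 CPM in cellulose, against 1.81 and 1.10 CPM in glucose (log2 fold change 9.22).

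**Figure D5:**
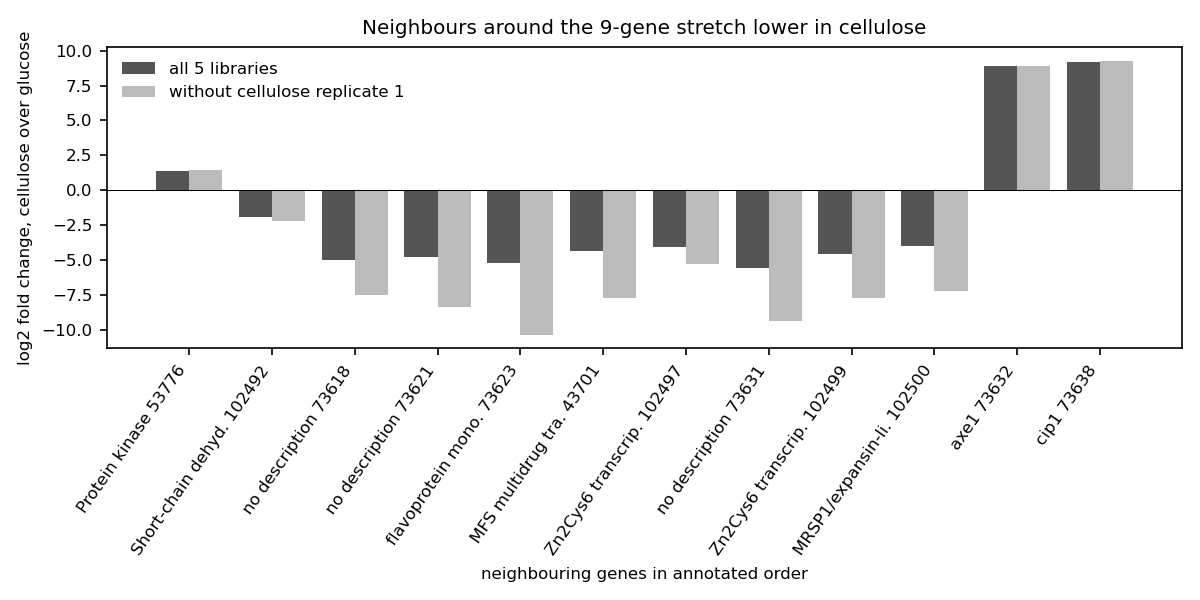
Log2 fold change of cellulose over glucose for neighbouring genes in annotated order around the run of 9 genes lower in cellulose, with all 5 libraries (dark) and without cellulose replicate 1 (light). The 9 lower genes reach −5.56 with all libraries and −10.35 without that library, and axe1 and cip1 beside them are at 8.87 and 9.22.

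Among runs higher in cellulose, a run of 7 genes ended in a Zn2Cys6 regulator (ID 105269, log2 fold change 8.26), a β-lactamase class C gene (ID 58717, 9.31) and the flavin monooxygenase gene 76230 (9.33). A run of 5 held the permease gene 3405 between a short-chain dehydrogenase gene (ID 106164, 7.34) and a Zn2Cys6 regulator gene (ID 26163, 6.02). In a run of 6, the permease gene 69957 lay beside the GH31 gene 69944, which had 3099 reads in cellulose and 0 in glucose, at least 618-fold higher with the same floor. The PKS gene 82208 was followed by the unknown gene 52476 (8.33) and the multicopper oxidase gene 124079 (8.70).

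Genes without an informative description in the deposited table made up 2229 of those tested, a few of which, cel7a among them, have a symbol in RefSeq. Of these 2229, 435 were higher and 279 lower (424 and 312 without cellulose replicate 1), with a median of 0.08. These were 19.5% higher and 12.5% lower, near the 19.2% and 13.6% of all genes tested. The unknown protein gene 108642 had 936, 703 and 961 CPM in cellulose, against 1.35 and 1.78 CPM in glucose (log2 fold change 9.08, adjusted p = 3.7e-08). The QI74 orthologue gene 74282 has a description and is not in this list, and is named for its share of counts. It took 1.70% of the counts in cellulose and 0.0744% in glucose. Its levels were 13113, 16038 and 17446 CPM in cellulose, against 767 and 624 CPM in glucose (log2 fold change 4.48). Among the genes without description, the unknown protein gene 121605 had 2255, 1326 and 1504 CPM in cellulose, against 6644 and 8074 CPM in glucose (log2 fold change −2.12).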

How the data were processed

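RNA-seq reads were aligned by the authors with TopHat2 2.0.4 to the Trichoderma reesei 2.0 genome, with unique alignments kept, and the authors deposited raw counts per gene from HTSeq 0.6.0. Strand use in counting is not given in the sources used here, so overlapping genes cannot be told apart, and near-identical copies lose reads. The authors' normalized values and their table of fold changes and adjusted p values were not used. The table has 0 columns of other series.

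The software was edgeR 4.0.16, run under R 4.3.3 beside limma 3.58.1, and DESeq2 1.42.0 served as the alternative. A gene entered the test when 2 or more libraries had 10 or more counts. One quasi-likelihood fit covered all 17 libraries in 6 groups, with TMM factors and Benjamini-Hochberg adjustment over 8506 genes (common biological coefficient of variation 0.205, prior degrees of freedom 4.16). Intervals are at the 95% level, floors are 3 counts over the group, and both cover counting error only. In simulated data for this comparison, over 8427 genes, a change of 4-fold was called in 95% of the altered genes and one of 2-fold in 46%, with 6 false calls. The altered genes were drawn from those above a minimum mean CPM, and any estimated in the wrong direction were left out of these rates. The simulation held no excess of glucose genes in cellulose replicate 1, so the rates are not those of the real comparison.

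Most gene lists were read by keyword from the gene descriptions of the deposited table, with some members added by their RefSeq symbol. The CAZyme lists were taken by family from the study's CAZyme table, with cel7a and cel5a added. Chitinase and hexosaminidase families of that table were added to the markers of starved hyphae. Names, lengths and gene order came from RefSeq, which matched 9072 of 9129 genes. Members, lists and rules were chosen with earlier results of these data known. Named genes are the 12 highest and 12 lowest outside CAZymes with at least 10 CPM and no overlap, in each list the highest, the lowest and the 2 with most reads, all members of short lists, regulators, the 10 largest shares of counts per group, and those said to be picked after their values were seen. Alternatives were DESeq2, other scalings and filters, the 5 libraries alone, a replicate block, each library left out, other fold thresholds and, added after seeing the data, 4 libraries alone without cellulose replicate 1. The result of a single gene is not reported here.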

Additional observations from a re-analysis of the deposited data

How the results depend on the processing

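Against 1634 higher and 1160 lower genes, the counts were 2403 lower at adjusted p with no fold threshold (2358 higher, within 1.5 times), and 901 higher and 315 lower at a log2 fold change of at least 2. With each library left out in turn they lay between 1536 and 1623 higher and between 1027 and 1284 lower, and under DESeq2, other scalings and filters, the 5 libraries alone and 4 libraries alone without cellulose replicate 1 between 1596 and 1667 higher and between 1061 and 1212 lower. The fit of the 5 libraries alone lost the calls of genes 73623 (adjusted p = 0.064), 123084 (0.072), 43701 (0.050, just above the threshold), 30759 (0.10) and 111082 (0.15), with values close to those of the full fit. DESeq2 gave no adjusted p for 12 called genes. Of 303 named genes, 266 kept their direction and their side of the thresholds in every fit. The thioredoxin-like gene 52337 reversed, at −1.32 with all libraries and between −2.11 (without glucose replicate 1) and 0.57 (without glucose replicate 3) with 1 library left out, and its call was also lost in other fits; the cause was not tested. The deviations of libraries with the same replicate number from their group means correlated at −0.230 (replicate 1) and −0.070 (replicate 3). With 2 glucose libraries these deviations are equal and opposite, so the values cannot decide whether shared replicate numbers pair the libraries. With the replicate number as a block, 1645 genes were higher and 1143 lower, and 2719 of 2794 calls were kept. Limits were the 2 glucose libraries, cellulose replicate 1, without which decreases were larger, and counting error, with 84 genes called higher on 1 to 3 glucose reads.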

Other observations

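The gene with most reads in these libraries, the unique protein gene 48266, had 60612, 18103 and 12763 CPM in cellulose, against 28836 and 33185 CPM in glucose. It held 3.23% of all counts in cellulose and 3.28% in glucose, and its log2 fold change of −0.02 had a standard error of 1.15. Without cellulose replicate 1 its log2 fold change was −1.01, so the near-equal shares rested on that library. The unknown protein gene 61593 had 23778, 3803 and 2696 CPM in cellulose, against 11352 and 15973 CPM in glucose, and was not called at −0.44 on the log2 scale (adjusted p = 0.77), nor at −2.07 without cellulose replicate 1 (adjusted p = 0.16), although 4 libraries fitted alone gave −2.04 (adjusted p = 0.0047). In both genes cellulose replicate 1 lay above both glucose libraries, which was not so in any of the 25 genes used above to describe that library.

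The gene 82512, which the deposited description names Rpn4 of the proteasome regulatory complex, and the thioredoxin-like gene 52337 differed between the glucose libraries. Gene 82512 had 1313, 1062 and 1120 CPM in cellulose, against 245 and 1406 CPM in glucose. Gene 52337 had 481, 224 and 358 CPM in cellulose, against 237 and 1532 CPM in glucose.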
